A study of Mus musculus with 9 samples.

Results

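The 10 genes described here are read out in fibrosis and in the extracellular matrix: the growth factor gene Tgfb1, the receptor gene Pdgfrb, the collagen genes Col1a1, Col1a2, Col3a1 and Col4a1, the matrix glycoprotein genes Fn1 and Postn, and the mesenchymal cytoskeleton genes Acta2 and Vim. They were chosen by name as fibroblast and matrix genes, with earlier results of these data known, and no measured value enters the rule. The count tables list 54532 gene identifiers, each of the 10 genes has 1 of them, and all 10 were among the 16646 genes with enough reads to be tested. The RNA came from whole mouse kidney and was selected by its polyA tail before paired-end sequencing. There were 9 libraries in 3 groups of 3. One group is wild type (WT, with no treatment named). The second is Trex1-/- given PBS, labelled KO, and the third is Trex1-/- given SN-011, labelled KO_SN011, both dosed for 2 weeks. All 9 libraries carry the strain label C57BL/6J. According to the methods of the study, the Trex1-/- animals came from crosses of heterozygotes, were 1 month old when daily intraperitoneal dosing began, and the PBS vehicle contained detergent. For the study as a whole, WT animals are described as bought in at 4 to 8 weeks of age, and the age of the 3 WT animals at kidney collection is not given in the sources used here. The deletion is in every cell of the Trex1-/- animals.

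In fibrosis, resident fibroblasts and pericytes become myofibroblasts, contractile cells that carry smooth muscle actin and lay down fibrillar collagen and fibronectin. TGF-beta and PDGF are the best-known signals for this step, and in the kidney the matrix then widens between tubules and around vessels and glomeruli. TREX1 is an exonuclease that clears DNA from the cytosol. Without it, the DNA sensor cGAS signals through STING and interferon is made, and SN-011 is a compound that blocks STING. The comparison of Trex1-/- with PBS against WT asks how these genes differ when that pathway is on, and the comparison of SN-011 with PBS asks how they differ when STING is blocked. WT animals have no treatment named, are described as bought in and are of unstated age. In comparisons with WT, genotype therefore cannot be told apart from dosing, source of the animals or age.

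The libraries held 16118813 to 21928965 counts each. Every library, WT included, had 0 reads on Trex1, the deleted gene. Its exons are shared with Atrip on the same strand, and featureCounts leaves such reads unassigned at its default setting. Whether this gave the 0 reads was not tested. With 0 in WT too, the counts cannot check the genotype and it rests on the labels. The labels name no sex, and the libraries are of 2 kinds. WT replicate 3, all 3 PBS libraries and SN-011 replicate 2 carried 153 to 188 counts per 1000000 counts (CPM) of Y-linked transcripts. The other 4 libraries carried 434 to 503 CPM of Xist, the RNA that silences an X chromosome in females, and at most 0.377 CPM of Y-linked transcripts. Since the PBS group is of 1 kind only and the other groups are mixed, each value below was also taken from a fit with a Y-linked term, which is a covariate for the presence of these transcripts. The labels list separate samples but do not say that each is a separate animal, so the p-values measure the spread between these libraries.

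None of the 10 genes passed the test in any of the 3 comparisons, by edgeR's quasi-likelihood test at a Benjamini-Hochberg adjusted p under 0.05 over all genes tested. In Trex1-/- with PBS against WT, 0 of the 10 were called against 1.88% of all genes. At an unadjusted p under 0.05 it was 1 of 10 (Acta2) against 15.2% of all genes, and the groups did not overlap for 2 of 10 (Acta2 and Col3a1) against 25.4%. In SN-011 against PBS, 0 of 10 genes and 0.0% of all genes were called. At an unadjusted p under 0.05 there was 1 of 10 (Col1a2) against 11.4%, and 2 of 10 (Col1a1 and Col1a2) did not overlap, against 16.1%. In Trex1-/- with SN-011 against WT, 0 of 10 were called against 1.28%. There 1 of 10 (Acta2) had an unadjusted p under 0.05 against 18.0%, and the same gene alone did not overlap, against 21.7%. The median log2 fold change of the 10 genes was 0.26 in PBS against WT, -0.36 in SN-011 against PBS and -0.00 in SN-011 against WT, while the median over all genes lay between -0.0053 and 0.0028. These medians were 0.06, -0.12 and 0.01 with the Y-linked term, and over the alternatives they ran from -0.05 to 0.39, from -0.51 to -0.12 and from -0.25 to 0.21. A log2 fold change of 1 is a doubling. By other tools, DESeq2's Wald test called 0, 0 and 1 of the 10 genes in the 3 comparisons, against 3.7%, 0.932% and 4.56% of all genes with an adjusted p. By edgeR's exact test it was 1, 0 and 0, against 8.27%, 0.805% and 1.95% of all genes, with Acta2 as the 1 gene each time. Over all genes these tools called 159 and 134 in SN-011 against PBS, where the quasi-likelihood test called 0 and 1905 had an unadjusted p under 0.05. In RNA from a whole organ, fewer cells of a type and less RNA per cell cannot be told apart.

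**Figure D1:**
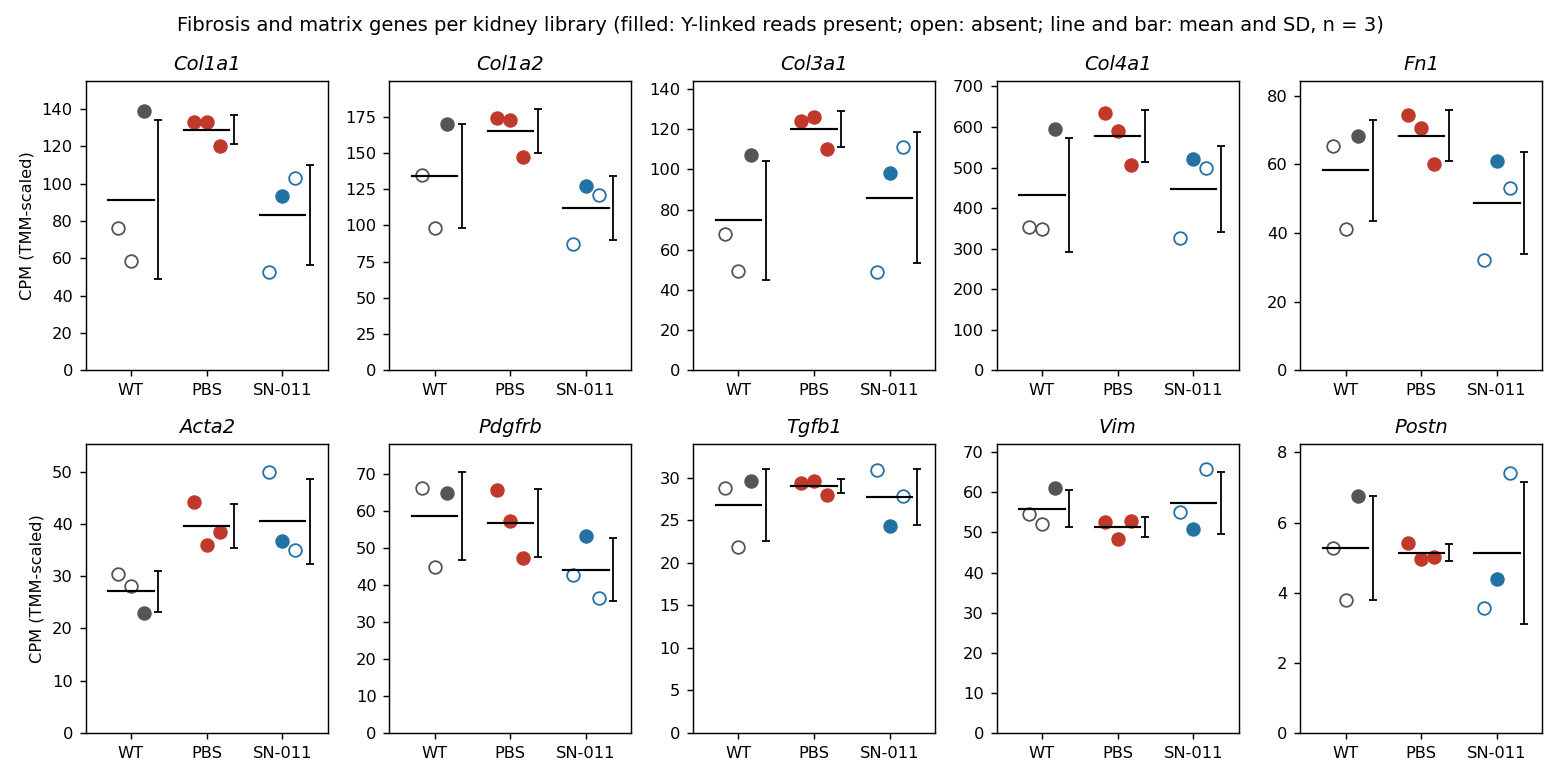
CPM of each of the 10 genes (y axis, from 0, scaled by library size) in the 3 groups (x axis), 1 point per library, with the group mean as a line and the SD as a bar (n = 3). Filled points are the 5 libraries with Y-linked transcripts and open points the 4 without. For Col1a1 and Col4a1 the single filled WT point, at 139 and 596 CPM, lies at the level of the PBS group, whereas for Acta2 all WT points lie at or below 30.5 CPM and under the other groups.

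Tgfb1 (ENSMUSG00000002603; GRCm38 chr7:25687002-25705077, plus strand) encodes TGF-beta 1, the ligand that drives matrix production by fibroblasts. Its levels were 28.8, 21.9 and 29.6 CPM in WT, 29.4, 29.6 and 28.0 CPM in PBS, and 30.9, 24.3 and 27.8 CPM in SN-011, in the order of the replicates. The groups overlapped, and WT replicate 2 was the lowest library. In log2, the fold change was 0.12 in PBS against WT (95% interval -0.17 to 0.41, edgeR adjusted p 0.719) and -0.07 in SN-011 against PBS (-0.36 to 0.22, adjusted p 0.878). Both intervals leave out a change of 1.5-fold. The genes for the other TGF-beta ligands were lower, with group means of 2.76 to 5.78 CPM for Tgfb2 and 2.58 to 2.93 CPM for Tgfb3. The receptor gene Tgfbr2 had a mean of 87.5 CPM in WT, 87.5 CPM in PBS and 87.6 CPM in SN-011, and its log2 fold changes were within 0.21 of 0 by their 95% intervals. Tgfbr1, the signalling partner of that receptor, had 59.6 ± 5.22 CPM in WT, 66.4 ± 2.22 CPM in PBS and 84.4 ± 11.3 CPM in SN-011 (SD, n = 3), and its log2 fold change of 0.50 in SN-011 against WT had an edgeR adjusted p of 0.0551. It was called with the Y-linked term (0.50, adjusted p 0.0315) and in 5 of 18 alternatives in all, where the adjusted p ran from 0.00563 to 0.165.

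Pdgfrb (ENSMUSG00000024620; chr18:61045150-61085061, plus strand) encodes the PDGF receptor of pericytes, mesangial cells and fibroblasts. Its levels were 66.1, 44.7 and 64.9 CPM in WT, 65.5, 57.2 and 47.2 CPM in PBS, and 42.7, 53.1 and 36.4 CPM in SN-011. All 3 groups overlapped, with the lowest library in the SN-011 group. Against WT, SN-011 had a log2 fold change of -0.41 (95% interval -0.82 to 0.00, unadjusted p 0.0506, edgeR adjusted p 0.279), which hardly moved with the Y-linked term, at -0.42 (adjusted p 0.156). For PBS against WT it was -0.05 (-0.46 to 0.36, adjusted p 0.928) without the term and -0.26 (adjusted p 0.678) with it. For SN-011 against PBS it was -0.36 (-0.77 to 0.05, adjusted p 0.496) without the term and -0.16 (adjusted p 0.844) with it. Pdgfra, the receptor gene of fibroblasts, had 44.7 ± 5.84, 47.2 ± 10.7 and 38.8 ± 8.66 CPM in WT, PBS and SN-011. Of the 6 genes for PDGF ligands and receptors, none was called in any comparison, and none had an unadjusted p under 0.05.

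Type I collagen is a trimer of 2 different chains, encoded by Col1a1 and Col1a2, and is the main fibril of scar tissue. Col1a1 (ENSMUSG00000001506; chr11:94936224-94953042, plus strand) had 76.1, 58.7 and 139 CPM in WT, 133, 133 and 120 CPM in PBS, and 52.9, 93.6 and 103 CPM in SN-011. The PBS libraries lay close together and above all SN-011 libraries, but WT replicate 3 was higher than any of them. PBS differed from WT by a log2 fold change of 0.50 (95% interval -0.18 to 1.17, edgeR adjusted p 0.481) and SN-011 from PBS by -0.63 (-1.31 to 0.05, adjusted p 0.475). With the Y-linked term these values moved to 0.12 (SE 0.27, adjusted p 0.907) and -0.17 (SE 0.287, adjusted p 0.892). Between PBS and WT within the libraries that carry Y-linked transcripts, where WT is replicate 3 alone, Col1a1 was at -0.12 on the log2 scale. Leaving out 1 library took the value in PBS against WT from 0.26 (without WT replicate 2) to 0.93 (without WT replicate 3). In SN-011 against PBS it ran from -0.81 (without SN-011 replicate 3) to -0.39 (without SN-011 replicate 1). The 95% intervals of the first fit reach past a doubling in PBS against WT and past a halving in SN-011 against PBS.

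Col1a2 (ENSMUSG00000029661; chr6:4504814-4541544, plus strand) was high and low in much the same libraries as Col1a1, with 135, 98.2 and 170 CPM in WT, 174, 173 and 147 CPM in PBS, and 86.9, 127 and 121 CPM in SN-011. Its PBS and SN-011 libraries did not overlap. SN-011 and PBS differed by a log2 fold change of -0.56 (SE 0.197, 95% interval -1.0 to -0.12), with an unadjusted p of 0.017 and an edgeR adjusted p of 0.327. With the Y-linked term it was -0.29 (adjusted p 0.662), and over 17 alternatives the adjusted p ran from 0.114 to 0.67. Between PBS and WT it was 0.29 (-0.14 to 0.73, adjusted p 0.518) without the term and 0.04 with it, and it ran from 0.11 without WT replicate 2 to 0.49 without WT replicate 3.

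Col3a1 (ENSMUSG00000026043; chr1:45311538-45349706, plus strand) encodes the chain of type III collagen, the thinner fibril of young scar and of vessel walls. Its levels were 67.8, 49.3 and 107 CPM in WT, 124, 126 and 110 CPM in PBS, and 48.9, 98.0 and 111 CPM in SN-011. WT and PBS libraries did not overlap, with WT replicate 3 just under PBS replicate 3, and SN-011 replicate 1 stood at the level of the lowest WT library. PBS against WT gave a log2 fold change of 0.69 (SE 0.309, 95% interval -0.00 to 1.37), the largest of the 10 genes, with an unadjusted p of 0.0503 and an edgeR adjusted p of 0.329. It was 0.34 (adjusted p 0.736) with the Y-linked term and 0.16 within the libraries that carry Y-linked transcripts. Between SN-011 and PBS it was -0.48 (-1.17 to 0.20, adjusted p 0.584) without the term and -0.09 with it. It was -0.20 (adjusted p 0.916) without SN-011 replicate 1 and -0.70 (adjusted p 0.452) without SN-011 replicate 3. The value in PBS against WT was 0.46 without WT replicate 2 and 1.03 without WT replicate 3. Of its exon bases, 1.44% are shared with the predicted gene Gm47302 on the same strand.

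Col4a1 (ENSMUSG00000031502; chr8:11198423-11312826, minus strand) encodes a chain of type IV collagen, the sheet-forming collagen of basement membranes. It had 354, 349 and 596 CPM in WT, 635, 591 and 507 CPM in PBS, and 326, 520 and 498 CPM in SN-011. Again WT replicate 3 stood with the PBS libraries, and the groups overlapped. A log2 fold change of 0.42 was found in PBS against WT (95% interval -0.10 to 0.93, edgeR adjusted p 0.427) and -0.37 in SN-011 against PBS (-0.88 to 0.15, adjusted p 0.577). With the Y-linked term the values were 0.09 and -0.00. With 1 library left out they ran from 0.28 (without WT replicate 2) to 0.71 (without WT replicate 3) and from -0.49 to -0.18 (without SN-011 replicates 2 and 1). Col4a2, which encodes the partner chain, starts 21 bases away on the opposite strand, and its levels were 278, 271 and 443 CPM in WT, 423, 409 and 361 CPM in PBS, and 257, 350 and 340 CPM in SN-011. The ratio of the 2 chains per kilobase of exon was 1.15 ± 0.0326 in WT, 1.29 ± 0.0425 in PBS and 1.25 ± 0.106 in SN-011 (SD, n = 3). By library it ran from 1.13 to 1.19 in WT and from 1.24 to 1.33 in PBS, without overlap, while the SN-011 libraries, from 1.13 to 1.32, overlapped both.

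The same ratio was taken for the fibrillar chains. Col1a1 over Col1a2, per kilobase, was 1.25 ± 0.266 in WT, 1.48 ± 0.0476 in PBS and 1.39 ± 0.232 in SN-011. By library it ran from 1.06 to 1.56 in WT, where replicate 3 was highest, and these values overlap those of both other groups. Col1a1 over Col3a1 was 1.80 ± 0.135 in WT, 1.61 ± 0.026 in PBS and 1.48 ± 0.12 in SN-011. The WT libraries, from 1.68 to 1.95, lay above all others, of which the highest was 1.63. No test was run on these ratios.

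The starts of these genes were searched for letters that mark well-known promoter elements. RefSeq (GRCm38.p6) gave a window of 250 bases before the start for 7 of the 10 genes, and Col1a1, Fn1 and Pdgfrb had no window. The start meant here is that of RefSeq, which for Acta2, Col1a2 and Vim lies inside the gene span given in this text, since that span comes from GENCODE. The lines below hold 30 bases each, 5′ to 3′ on the strand of the gene, with CCAAT (the letters bound by NF-Y, which may lie on either strand) or TATAAA (the letters of the box that TFIID binds near the start of some genes) in capitals.
Col1a2, CCAAT, chr6:4505497-4505526, plus strand: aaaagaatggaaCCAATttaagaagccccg
Col4a1, CCAAT on the other strand, chr8:11312954-11312983, minus strand: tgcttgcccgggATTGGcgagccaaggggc
Vim, CCAAT, chr2:13574103-13574132, plus strand: ggcctagcacttCCAATtagtaacaggact
Vim, CCAAT on the other strand, chr2:13574205-13574234, plus strand: ttccgggtccccATTGGctggctcgctcgg
Col3a1, TATAAA 117 to 112 bases before the start, chr1:45311409-45311438, plus strand: actaatgcatgtTATAAAcatatgcatagg
Vim, TATAAA 32 to 27 bases before the start, chr2:13574267-13574296, plus strand: tcctaacagtgtTATAAAagcagcgccctt
Postn, TATAAA 26 to 21 bases before the start, chr3:54361069-54361098, plus strand: agcccagagctaTATAAActcagctctcca
CCAAT was found on either strand in 33.8% of 32851 RefSeq windows and TATAAA in 12.4%. A match of letters is a description of the window and says nothing on binding in these kidneys.

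Fibronectin, encoded by Fn1 (ENSMUSG00000026193; chr1:71585520-71653200, minus strand), is the glycoprotein on which collagen fibrils assemble. Its levels were 65.4, 41.3 and 68.2 CPM in WT, 74.4, 70.7 and 60.0 CPM in PBS, and 32.2, 61.0 and 53.0 CPM in SN-011. Of the SN-011 libraries only replicate 2 reached into the range of the PBS group, where WT replicates 1 and 3 also lay. SN-011 against PBS gave a log2 fold change of -0.49 (95% interval -1.01 to 0.04, unadjusted p 0.0652, edgeR adjusted p 0.47), against -0.22 once the Y-linked term was added. Between PBS and WT it was 0.23 (-0.29 to 0.75, adjusted p 0.691) without the term and -0.05 with it. Without WT replicate 2 PBS against WT gave 0.03 and without WT replicate 3 it gave 0.36. SN-011 against PBS gave -0.26 without SN-011 replicate 1 and -0.69 (adjusted p 0.146) without SN-011 replicate 2. Of the exon bases of Fn1, 2.50% lie opposite exons of Apol7d.

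Periostin, a matrix protein of remodelling tissue encoded by Postn (ENSMUSG00000027750; chr3:54361109-54391037, plus strand), was the least abundant of the 10 genes, with 63 to 125 reads per library. Its levels were 5.28, 3.79 and 6.77 CPM in WT, 5.42, 4.96 and 5.03 CPM in PBS, and 3.57, 4.4 and 7.42 CPM in SN-011. The PBS libraries lay inside the range of both other groups. Its log2 fold change was -0.03 in PBS against WT (95% interval -0.67 to 0.60, edgeR adjusted p 0.969) and -0.00 in SN-011 against PBS (-0.64 to 0.64, adjusted p 0.998), so that changes of up to about 1.5-fold in either direction lie inside the intervals.

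Acta2 (ENSMUSG00000035783; chr19:34241090-34255590, minus strand) encodes smooth muscle alpha-actin, the marker of myofibroblasts and of vascular smooth muscle. Its levels were 30.5, 28.1 and 22.9 CPM in WT, 44.2, 35.9 and 38.5 CPM in PBS, and 49.9, 36.7 and 35.0 CPM in SN-011. Both Trex1-/- groups lay above WT without overlap, and they overlapped each other. The log2 fold change was 0.54 in PBS against WT (SE 0.156, 95% interval 0.19 to 0.89), with an unadjusted p of 0.00588 and an edgeR adjusted p of 0.132. In SN-011 against WT it was 0.58 (SE 0.156, 0.23 to 0.92), with an unadjusted p of 0.00399 and an adjusted p of 0.10. Between SN-011 and PBS it was 0.04 (-0.31 to 0.38, adjusted p 0.95). Unlike for the collagens, the WT library with Y-linked transcripts was the lowest of all 9. With the Y-linked term the log2 fold change was 0.74 in PBS against WT (adjusted p 0.075) and 0.58 in SN-011 against WT (adjusted p 0.0398), and the latter passed the threshold. Acta2 was called in 4 of 17 alternatives for PBS against WT, where the adjusted p ran from 0.00699 to 0.385, and in 4 of 18 for SN-011 against WT, where it ran from 0.0265 to 0.243. In each of these alternatives the value was above 0.

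Actin genes of smooth muscle are bound by SRF at the CArG box, 10 letters with CC at one end, GG at the other and 6 letters of A or T between. No RefSeq window of the 7 genes holds a full box, which 1.47% of all windows do. The lines below show the windows of Acta2 and Col1a2 that hold a box with 1 of the 6 central letters replaced, in capitals.
Acta2, 84 to 75 bases before the start, chr19:34255438-34255467, minus strand: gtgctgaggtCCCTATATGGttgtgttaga
Acta2, 34 to 25 bases before the start, chr19:34255388-34255417, minus strand: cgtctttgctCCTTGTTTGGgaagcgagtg
Col1a2, 228 to 219 bases before the start, chr6:4505380-4505409, plus strand: taaagtgcttCCAAACTTGGcaagggcgag
Such a box was found in 7.24% of all windows, and Acta2 held it at 2 places. The match is again a description of the letters only.

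The other genes of the contractile programme were set beside Acta2. Tagln, the transgelin gene of smooth muscle, was at 0.531 ± 0.159 CPM in WT, 0.807 ± 0.193 CPM in PBS and 0.922 ± 0.388 CPM in SN-011, and Cnn1, the calponin gene, was at 1.41 ± 0.504, 1.10 ± 0.214 and 1.37 ± 0.601 CPM. Myh11, the smooth muscle myosin gene, was at 15 ± 3.79, 13.1 ± 2.77 and 16.6 ± 6.18 CPM. None of these was called. Tagln and Cnn1 were near the floor, with at most 1.16 and 1.97 CPM in any library, under the lowest value of Postn (3.57 CPM). The log2 fold change of Tagln was 0.58 in PBS against WT (95% interval -0.37 to 1.53) and 0.77 in SN-011 against WT (-0.16 to 1.71). That of Myh11 was -0.20 (-0.85 to 0.45) and 0.14 (-0.50 to 0.78). With the Y-linked term Myh11 changed sign in PBS against WT, to 0.42 (SE 0.20, edgeR adjusted p 0.477), and was at 0.11 in SN-011 against WT. In SN-011 against PBS it went from 0.34 to -0.31. In PBS against WT, Tagln was at 0.59 with the term, and Cnn1 at -0.33 without it and -0.28 with it. Des, which encodes desmin, was, without the Y-linked term, the 1 called gene of the list of 12 smooth muscle and myofibroblast markers, of which 11 were tested. It was lower in SN-011 (9.48 ± 1.81 CPM) than in WT (16.7 ± 1.40 CPM) by a log2 fold change of -0.82 (edgeR adjusted p 0.0486), and leaving out 1 library at a time took the adjusted p from 0.0273 to 0.155. The summed level of the list, Acta2 included, was 286 to 349 CPM in WT, 281 to 320 CPM in PBS and 279 to 327 CPM in SN-011, so that the sums overlapped in every pair of groups. Myocd had 0 reads in PBS replicate 3 and Actg2 had 0 in SN-011 replicate 2.

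Vim (ENSMUSG00000026728; chr2:13573927-13582826, plus strand) encodes vimentin, the intermediate filament of mesenchymal cells and of injured tubules. It had 54.6, 52.1 and 61.1 CPM in WT, 52.7, 48.3 and 52.8 CPM in PBS, and 55.1, 50.8 and 65.9 CPM in SN-011. The groups overlapped. The log2 fold change was -0.12 in PBS against WT (95% interval -0.36 to 0.11, edgeR adjusted p 0.631), 0.16 in SN-011 against PBS (-0.08 to 0.40, adjusted p 0.608) and 0.03 in SN-011 against WT (-0.20 to 0.27, adjusted p 0.901). All 3 intervals leave out a change of 1.5-fold in either direction.

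The 5 genes Col1a1, Col1a2, Col3a1, Col4a1 and Fn1 followed each other across the libraries. Pearson's r of their log2 CPM over the 9 libraries ran from 0.788 to 0.963 over the 10 pairs, as a description of a set picked after its values were seen. Acta2 had an r of -0.403 to 0.323 with the other 9 genes. The libraries with Y-linked transcripts were on the high side for these 5 genes. In the fit with the Y-linked term, the coefficient of that term was 0.67 on the log2 scale for Col1a1 (SE 0.237), 0.42 for Col1a2 (SE 0.156), 0.59 for Col3a1 (SE 0.26), 0.55 for Col4a1 (SE 0.163) and 0.44 for Fn1 (SE 0.204). For Acta2 it was -0.28 (SE 0.143), and for Tgfb1 and Vim it was -0.02. The median coefficient was 0.37 over the 10 genes and -0.014 over all genes tested. Within WT, the library with Y-linked transcripts held 2.07 times the Col1a1 of the mean of the other 2, and 1.69 times the Col4a1. Of the SN-011 libraries without them, replicate 3 held 103 CPM of Col1a1 and replicate 1 held 52.9 CPM, so that libraries of the same kind also differed. No PBS library lacks Y-linked transcripts, so the groups could be compared with PBS only by this term and within the libraries that carry them. The coefficient therefore rests on WT replicate 3 and SN-011 replicate 2, each against the rest of its group. Every value against PBS taken with the term has this limit too.

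**Figure D2:**
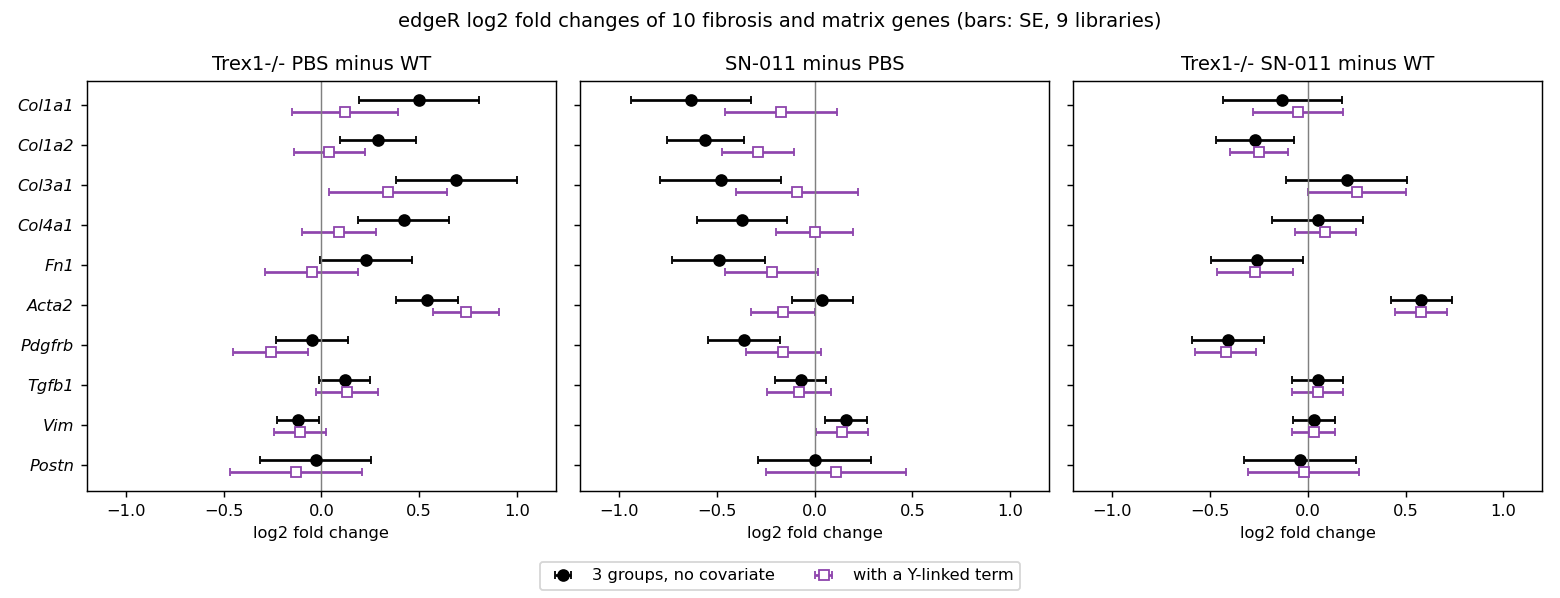
Log2 fold changes (x axis) of the 10 genes (y axis) in the 3 comparisons, from edgeR fits of 9 libraries. Black circles are the fit of 3 groups and open squares the fit with the Y-linked term, with bars of 1 SE. In the left panel the collagen values move toward 0 with the term, from 0.50 to 0.12 for Col1a1, while Acta2 moves from 0.54 to 0.74.

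Per kilobase of exon, so that genes can be compared, Col4a1 was the most abundant of the 10, with a mean of 65.1 CPM per kilobase over the 9 libraries and a range of 43.7 to 85.1. That level was above 95.2% of the genes tested, and no library of any other of the 10 genes reached it. Acta2 (16.3), Col1a1 (15.4), Vim (11.6), Col1a2 (11.0), Pdgfrb (9.69) and Col3a1 (9.53) came next in mean CPM per kilobase, then Tgfb1 (5.52) and Fn1 (5.0). Each of these overlapped the next in the order over its libraries, except Fn1, whose lowest library (2.75) lay above the highest of Postn (0.853). Postn had a mean of 0.596 CPM per kilobase and lay above 15.6% of the genes tested. No test was run on this order.

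**Figure D3:**
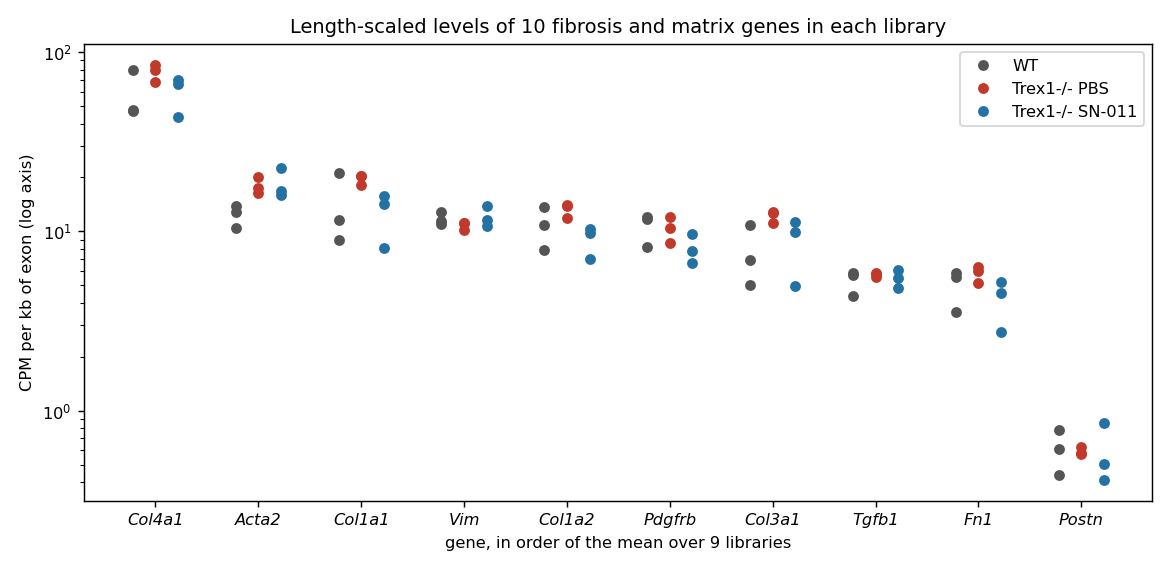
Level of each gene in CPM per kilobase of exon (y axis, log scale) in each of the 9 libraries, coloured by group, with genes in order of their mean (x axis). Col4a1 stands alone at 43.7 to 85.1 and Postn at 0.41 to 0.853, and the other 8 genes lie between them.

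The matrix and the signals that build it were then covered by 9 lists, which hold 167 genes, of which 157 were tested. In PBS against WT, 3 of the 157 genes (1.91%) were called, 2 higher and 1 lower, where 1.88% of all genes were. In SN-011 against PBS it was 0, with 0.0% of all genes called, and in SN-011 against WT it was 4 (2.55%), 3 higher and 1 lower, where 1.28% of all genes were. The median log2 fold change of the 157 was 0.02, -0.13 and -0.14. Of the 9 fibrillar collagen genes tested, 1 was called higher in PBS against WT (median 0.29) and 2 in SN-011 against WT (median -0.02). Of the 24 basement membrane genes none was called in any comparison, with medians of 0.05, -0.12 and -0.06. Of the 14 other collagen genes 1 was called, lower in SN-011 against WT, with medians of -0.12, -0.53 and -0.52, and of the 30 matrix glycoprotein and proteoglycan genes 1 was higher and 1 lower in PBS against WT, with medians of 0.02, -0.27 and -0.25. The 20 genes of collagen processing and cross-linking (medians -0.02, -0.16 and -0.18) and the 21 matrix proteases and inhibitors (-0.02, -0.19 and -0.03) had no call either. Among 23 TGF-beta ligands, activators, receptors and SMADs, 1 was called, in SN-011 against WT, with medians of -0.14, 0.07 and -0.04. Among 18 TGF-beta induced genes 1 was called, in PBS against WT, with medians of 0.12, 0.07 and 0.23. At an unadjusted edgeR p under 0.05 there were 4, 9 and 9 of the 23 and 3, 9 and 5 of the 18. The shares of all genes were 15.2%, 11.4% and 18.0%. In SN-011 against PBS, 16 of the 23 and 11 of the 18 were above 0. The medians and calls changed when the Y-linked term was added. The median of the fibrillar collagens was then 0.12, -0.14 and -0.02 in the 3 comparisons, and that of the other collagens -0.27, -0.29 and -0.49. In PBS against WT there were then 2 of the 157 (1.27%), Col5a2 higher and Col16a1 lower, where 1.19% of all genes were called, and no TGF-beta induced gene was among them. In SN-011 against PBS there was again 0, with 0.0% of all genes. For SN-011 against WT there were 12 (7.64%), where 3.94% of all genes were called. Of these Acta2, Col11a2, Col5a2, Itgav, Skil, Tgfbr1 and Thbs1 were higher and Adamts5, Col16a1, Comp, Pcolce2 and Tgfb2 were lower. They took in 4 of the 23 ligands, activators, receptors and SMADs (3 higher, and Tgfb2 lower) and 3 of the 18 TGF-beta induced genes, all higher.

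Col5a2, which encodes a chain of type V collagen, the collagen that seeds type I fibrils, was the fibrillar gene called in both comparisons with WT. It had 66.8, 55.6 and 48.3 CPM in WT, 105, 118 and 90.4 CPM in PBS, and 88.2, 100 and 123 CPM in SN-011. Both Trex1-/- groups lay above WT, and WT replicate 3 was the lowest library, so that its order differed from that of Col1a1 and Col3a1. The log2 fold change was 0.87 in PBS against WT (SE 0.156, edgeR adjusted p 0.0175) and 0.86 in SN-011 against WT (SE 0.156, adjusted p 0.0304). With the Y-linked term it was called at 1.02 (adjusted p 0.0213) and 0.87 (adjusted p 0.0107). The first call was lost without WT replicate 2 or PBS replicate 1 or 2, where the adjusted p reached 0.0981. The second was lost without any WT library, PBS replicate 1 or SN-011 replicate 3, where it reached 0.121, with values of 0.73 to 1.0 over all left-out libraries.

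Vcan, the gene of the proteoglycan versican, was lower in PBS (2.53 ± 0.579 CPM) than in WT (6.31 ± 1.25 CPM; SD, n = 3), by -1.32 in log2 (edgeR adjusted p 0.0125, SE 0.221). With SN-011 it was at 3.57 ± 0.0844 CPM. Tgfbi, a TGF-beta induced adhesion protein gene, was higher in PBS (31.3 ± 2.30 CPM) than in WT (21.0 ± 1.97 CPM), by 0.57 (SE 0.118, adjusted p 0.0391). Neither was called with the Y-linked term, at -1.14 (adjusted p 0.075) and 0.51 (adjusted p 0.16). Without WT replicate 1 or PBS replicate 1 or 2 the call of Vcan was lost (adjusted p up to 0.076), and that of Tgfbi was lost without any WT or PBS library other than WT replicate 3 (up to 0.178).

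In SN-011 against WT, Col11a2, a fibrillar chain known from cartilage, was higher, at 3.86 ± 0.589 against 1.23 ± 0.101 CPM, by 1.65 in log2 (edgeR adjusted p 0.00908, SE 0.217). It was at 2.29 ± 0.157 CPM in PBS, between the other groups and apart from both, but was not called in PBS against WT (0.90, adjusted p 0.0779). Itgav, the integrin chain that releases active TGF-beta from its latent form, was higher at 224 ± 14.2 against 156 ± 5.69 CPM, by 0.53 (SE 0.0934, adjusted p 0.0286). Col16a1, a collagen of the fibril surface, was lower at 15.6 ± 3.50 against 31.0 ± 5.01 CPM, by -1.0 (SE 0.161, adjusted p 0.0196). All 3 were also called with the Y-linked term, at 1.65, 0.52 and -1.01 with adjusted p of 0.00439, 0.0128 and 0.000611. Col16a1 was not called in PBS against WT at -0.47 (adjusted p 0.191), but it was called with the term, at -0.76 (adjusted p 0.00638). The call of Col11a2 was lost without WT replicate 1 or 2 (adjusted p up to 0.0533) and that of Col16a1 without WT replicate 1 (up to 0.0712). The call of Itgav was lost without any WT library, PBS replicate 2 or SN-011 replicate 3 (up to 0.13).

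No gene was called in SN-011 against PBS, so the 4 list genes with the smallest unadjusted p are given as values. Thbs1, the gene of thrombospondin 1, which can activate latent TGF-beta, had 103 ± 18.9 CPM in PBS and 186 ± 33.1 CPM in SN-011 (log2 fold change 0.85, SE 0.166, edgeR adjusted p 0.203). Bhlhe40, a transcription factor gene, had 74.2 ± 14.0 and 143 ± 44.1 CPM (0.95, SE 0.205, adjusted p 0.21). Fbln1, which encodes the elastic fibre protein fibulin 1, had 23.4 ± 1.42 and 12.3 ± 1.99 CPM (-0.93, SE 0.175, adjusted p 0.172), and Adamts5, the gene of a protease that cuts proteoglycans, had 21.7 ± 2.03 and 13.6 ± 0.786 CPM (-0.67, SE 0.146, adjusted p 0.21). Groups did not overlap for any of the 4 genes, against 16.1% of all genes, but the 4 were picked by these same values. With the Y-linked term the log2 fold changes were 0.82 for Thbs1, 0.73 for Bhlhe40, -0.67 for Fbln1 and -0.77 for Adamts5. None of the 4 was called with it. The first 3 were called in 4 of 17 alternatives each and Adamts5 in 3 of 17.

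**Figure D4:**
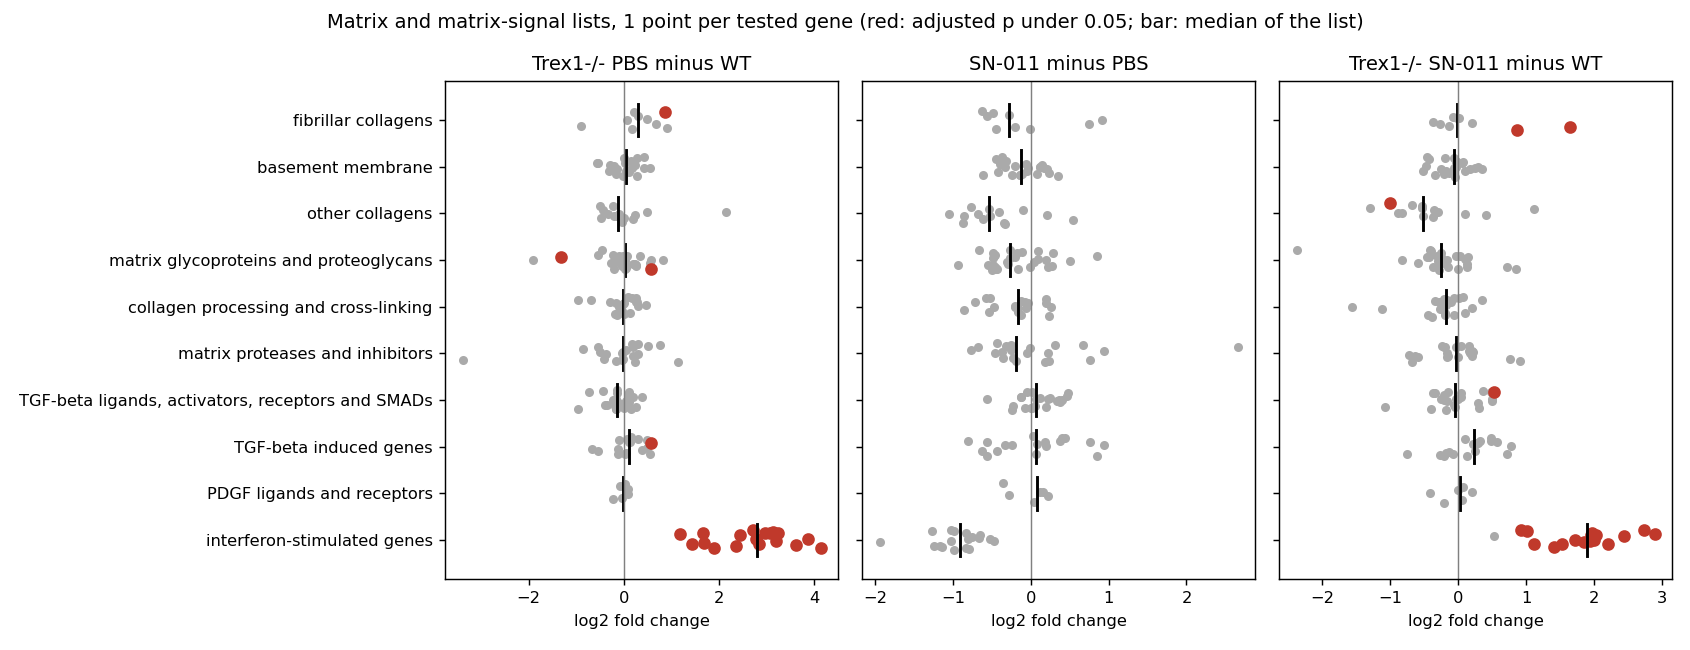
Log2 fold changes (x axis) of the tested genes of 9 matrix and signal lists and of the interferon-stimulated list (y axis), in the 3 comparisons. A point is 1 gene, larger red points have an adjusted p under 0.05, and the bar is the median of the list. The interferon list has its median at 2.81 in PBS against WT and at 1.89 in SN-011 against WT, while the matrix medians there lie between -0.52 and 0.29.

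The same libraries carried large differences elsewhere. Of 18 interferon-stimulated genes, 18 were called higher in PBS against WT, with a median log2 fold change of 2.81, and 16 in SN-011 against WT, with a median of 1.89. From PBS to SN-011 the median was -0.91, with 0 called and 18 of 18 at an unadjusted p under 0.05. Fibroblast markers (14 genes, with Col1a1, Col1a2 and Col3a1 among them) summed to 533 to 783 CPM in WT, 718 to 784 CPM in PBS and 480 to 621 CPM in SN-011, with no gene called in any comparison and medians of 0.05, -0.31 and -0.26. Dcn, the decorin gene of fibroblasts, had 45.9 ± 5.78, 46.5 ± 4.76 and 38.6 ± 7.03 CPM in WT, PBS and SN-011. Pericyte and mesangial markers summed to 298 to 460, 326 to 416 and 323 to 356 CPM, and none of the 11 was called without the Y-linked term. With it Kcnj8 was lower in both comparisons with WT and Abcc9 in SN-011 against WT. Macrophage markers summed to 192 to 229 CPM in WT, 305 to 346 CPM in PBS and 187 to 283 CPM in SN-011. Of 12 such markers 3 were called, C1qa, C1qb and C1qc, all higher in PBS against WT. With the Y-linked term none was called there, and C1qb and C1qc were called higher in SN-011 against WT. T and NK cell markers summed to 9.95 to 14.7, 26.4 to 42.2 and 13.1 to 27.4 CPM in WT, PBS and SN-011. Their median log2 fold change was 1.46 in PBS against WT, where 11 of 11 were above 0, and Cd4 and Cd3g were called, though not with the term. B and plasma cell markers summed to 187 to 206, 202 to 232 and 259 to 340 CPM. Of the 7 tested, 2 (Jchain and Igkc) were called higher in both comparisons with WT, with and without the term. Red cell markers summed to 607 to 1830, 377 to 734 and 174 to 297 CPM. Their median was -2.48 in SN-011 against WT, with Hbb-bs and Hba-a1 called lower, and Alas2 and Hba-a2 as well once the term was added. Endothelial markers summed to 1070 to 1210, 975 to 1050 and 866 to 1030 CPM, with WT above both other groups, and Plvap was called lower in SN-011 against WT with and without the term. Injured tubule markers summed to 2220 to 2530, 1580 to 2010 and 1710 to 2520 CPM, with WT above PBS, and 1 of 10, Havcr1, was called, lower in PBS against WT and with the term alone. For distal nephron and collecting duct markers the sums were 11400 to 13100, 10200 to 11000 and 10600 to 11700 CPM, again with WT above PBS and with no call. Podocyte markers summed to 593 to 641, 592 to 682 and 657 to 781 CPM, with SN-011 above WT and no call. The sums of proximal tubule and adipocyte markers overlapped between all groups, and the 1 gene called among them was Slc5a2, lower in PBS against WT without the term and in SN-011 against WT with it. The part of these cell markers in the values of the 10 genes was not tested.

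By Pearson's r of log2 CPM over the 9 libraries, the genes whose profile was most like the mean of the 10 standardised profiles were Lpar2 (0.958), Hspb6 (0.948), Pole2 (0.931), Bard1 (0.926) and Tuft1 (0.922). Among the 10 genes themselves, the r with that mean was highest for Col1a1 (0.942), Col3a1 (0.921) and Col1a2 (0.917) and lowest for Acta2 (-0.0736). The nearest profile was Col4a2 for Col4a1 (0.982), Adamts2, which encodes the protease that trims fibrillar procollagen, for Col1a2 (0.971), Col1a2 for Fn1 (0.953), Hspb6 for Col1a1 (0.968) and Vangl1 for Col3a1 (0.974). For Tgfb1 it was Marc1 (0.972), for Pdgfrb Atp1b2 (0.951), for Vim Map1lc3b (0.951) and for Postn Abtb1 (0.958). With 9 libraries and 16646 genes some profiles match closely in any case, and the points share depth and the mix of Y-linked transcripts.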

How the data were processed

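The authors trimmed the reads, aligned them with HISAT2 to mm10 and assigned them to Ensembl genes with featureCounts. The versions and the strand setting are not given in the sources used here. The deposited values are raw counts per gene and library, not pooled, and no row lacked a gene. Of 54532 identifiers, 54495 were found in GENCODE vM21 (GRCm38, the build of mm10), which gave symbols, positions and exon lengths. The 10 genes, the gene lists and the tests were chosen with earlier results of these data known.

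The analysis used edgeR 4.0.16 (R 4.3.3). Low genes were removed with filterByExpr (minimum count 10, minimum total 15). Libraries were scaled by TMM, whose factors ran from 0.926 to 1.06, and all 9 libraries entered 1 quasi-likelihood fit of 3 group means. A gene was called at a Benjamini-Hochberg adjusted p under 0.05 over 16646 genes. CPM use the TMM factors, except for Y-linked genes and Xist, which use the raw totals. SE and 95% intervals come from that fit. Levels between genes are CPM per kilobase of merged exons. The steps were tested on simulated counts before use. Depth limits precision most for Postn, with 63 to 125 reads per library, against 5750 to 10425 for Col4a1.

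The 10 genes were always named. From the matrix and signal lists, up to 8 called genes per direction were named or, where fewer than 4 were called, the 4 with the smallest unadjusted p. Profiles were compared over log2 CPM with a prior count of 2, among genes with a mean of at least 1 CPM. The nearest profile of Acta2 is not reported here. Tgfb2, Tgfb3, Tgfbr1, Tgfbr2, Pdgfra, Col4a2, Dcn, the smooth muscle genes, the cell markers and the genes called with the Y-linked term alone were named after their values were seen. Promoter windows are from RefSeq and were searched on both strands.

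Alternatives were DESeq2 1.42.0 size factors or its Wald test, edgeR's exact test, no filter beyond 1 read (30892 genes), a fit of 6 libraries, a replicate block, the Y-linked term, and each library left out in turn. Fits of only the libraries with or without Y-linked transcripts were added after seeing the data.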

Additional observations from a re-analysis of the deposited data

Results flagged for a closer look

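Differences between SN-011 and WT were taken apart for the libraries with Y-linked transcripts (SN-011 replicate 2 and WT replicate 3) and for those without (2 libraries of each group). Vim, the vimentin gene, had a log2 ratio of group means of -0.27 in the former and 0.18 in the latter, a gap of -0.45, with each SN-011 library of one kind on one side of WT and each of the other kind on the other. Bhlhe40, a transcription factor gene of the TGF-beta induced list, had -0.18 and 0.46, a gap of -0.63. The difference between the kinds of library was not tested for any gene, since the former holds 1 library per group. Vim did not have the widest gap. In fits of each kind of library alone, Postn was at -0.6 with Y-linked transcripts and 0.27 without, and Vim at -0.24 and 0.18. Col1a1 (-0.55 and 0.21), Col3a1 (-0.11 and 0.45) and Tgfb1 (-0.26 and 0.21) also lay wider apart than Vim. For Postn, Col1a1, Col3a1 and Tgfb1, the SN-011 and WT libraries without Y-linked transcripts overlapped. The share of all genes with such a gap was not counted.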

How the results depend on the processing

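Across 17 alternatives for each comparison with PBS and 18 for SN-011 against WT, the 10 genes gave 520 values, of which 8 passed the threshold, all of them Acta2. In PBS against WT, 1 of the 10 genes was called with no filter beyond 1 read, with edgeR's exact test, with the 6 libraries of the comparison and with the replicate block. In SN-011 against WT, 1 was called with no filter, with DESeq2's Wald test, with the replicate block and with the Y-linked term. Leaving out 1 library at a time left 0 to 0 called in each comparison.

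The number of all genes called moved more. In PBS against WT it was 313, and 707 with no filter, 1376 with the exact test, 694 with the Wald test, 751 with the 6 libraries, 198 with the Y-linked term and 153 to 774 with 1 library left out. In SN-011 against PBS it was 0, and 127 with no filter, 134 with the exact test, 159 with the Wald test, 107 in the libraries with Y-linked transcripts and 0 to 519 with 1 library left out, the highest without SN-011 replicate 2. In SN-011 against WT it was 213, and 607, 324 and 778 with no filter, the exact test and the Wald test, 43 with the 6 libraries, 656 with the Y-linked term, 356 and 461 in the libraries with and without Y-linked transcripts, and 38 to 376 with 1 library left out, the lowest without WT replicate 1. Among the libraries with Y-linked transcripts WT and SN-011 are 1 library each, so the spread comes from the 3 PBS libraries, the lone libraries are assumed to vary like them, and these calls compare libraries rather than conditions. The causes were not tested.

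Several of the 10 genes changed sign, none of them called on either side. In PBS against WT within the libraries with Y-linked transcripts, Col1a1 was at -0.12, Col1a2 at -0.04, Col4a1 at -0.05 and Tgfb1 at -0.03, and with the Y-linked term Fn1 was at -0.05. In SN-011 against PBS, Acta2 was at -0.08 in those libraries and at -0.16 with the term, and Postn at 0.11 with the term. In SN-011 against WT, Col3a1 was at -0.11, Col4a1 at -0.17, Tgfb1 at -0.26 and Vim at -0.24 in the libraries with Y-linked transcripts, and Col1a1 at 0.21 and Postn at 0.27 in those without. Postn, at -0.03 and -0.00, turned to 0.00 with the replicate block in PBS against WT and with DESeq2 size factors or the Wald test in SN-011 against PBS. With 1 library left out, the values ran from -0.21 to 0.06 for Pdgfrb, -0.01 to 0.19 for Tgfb1 and -0.23 to 0.18 for Postn in PBS against WT. They ran from -0.14 to 0.14 for Acta2, -0.15 to 0.01 for Tgfb1 and -0.36 to 0.20 for Postn in SN-011 against PBS. In SN-011 against WT they ran from -0.37 to 0.30 for Col1a1, -0.03 to 0.55 for Col3a1, -0.09 to 0.34 for Col4a1, -0.08 to 0.13 for Tgfb1, -0.08 to 0.11 for Vim and -0.40 to 0.17 for Postn.

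The replicate block used numbers that only name the libraries: deviations of same-numbered libraries from their group means had an r of -0.294 to 0.242. With 3 libraries a group, the 95% intervals of Col1a1, Col3a1 and Col4a1 span more than a doubling, and no PBS library lacked Y-linked transcripts, so that group and kind of library cannot be fully told apart.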
